A study of Homo sapiens with 16 samples.

Results

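The cyclin D, CDK4/6 and RB family was followed here as 10 genes chosen by name from 58676 gene identifiers: the D cyclins CCND1, CCND2 and CCND3, the kinases CDK4 and CDK6, the pocket protein genes RB1, RBL1 (p107) and RBL2 (p130), and the inhibitors CDKN2C (p18) and CDKN1B (p27). The RNA came from A549 (lung adenocarcinoma) and SUM159 (triple-negative breast cancer), both established human cell lines. Each line was left untreated (UT), or treated for 16 h with 2 µM palbociclib (PD), an inhibitor of CDK4 and CDK6, with 3 µM indisulam (IN), a compound that directs the splicing factor RBM39 to degradation through DCAF15, or with both (P+I). Each of the 8 groups had 2 libraries, technical duplicates by the series' design text, so the p-values below measure the spread between libraries and not between separate cultures. A549 grew in RPMI and SUM159 in DMEM/F12 with insulin and hydrocortisone, so line and medium cannot be told apart. The 16 libraries held 18306636 to 34075588 counts in genes. Levels are given as CPM, the share of a library's gene counts scaled by TMM factors within each line.

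The D cyclins bind CDK4 and CDK6 and carry growth signals to the cell cycle. The active kinases phosphorylate the pocket proteins, which otherwise hold E2F transcription factors in check, and E2F then turns on the genes of DNA replication. CDKN2C belongs to the INK4 inhibitors, which bind CDK4 and CDK6 directly, while CDKN1B binds cyclin-CDK complexes. RB1 works mostly with the activating E2F factors, and RBL1 and RBL2 with the repressive ones; RBL2 is the pocket protein known from resting cells and RBL1 is itself a target of E2F.

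The lines carried most of the markers of their labels, with exceptions given below. The epithelial genes CDH1, KRT19 and EPCAM had medians of 77.6, 123 and 22.1 CPM in A549 and of 0.348, 0.355 and 0.444 in SUM159. KRT8 and KRT18 had medians of 5396 and 5000 CPM in A549 and were still well expressed in SUM159, at 644 and 382. The mesenchymal genes VIM (vimentin), FN1, CDH2 and ZEB1 had medians of 871, 320, 44.6 and 34.9 CPM in A549. Their medians in SUM159 were 3291, 2362, 172 and 54.0 CPM. ESR1 and PGR were at most 0.796 CPM in any library. ERBB2 was at 98.4 to 145 CPM in SUM159 and at 106 to 138 CPM in A549. At 9p21 the values went against the description of A549 as p16 null: CDKN2A, the p16 gene, was at 1.35 to 2.48 CPM and its neighbour MTAP at 15.4 to 32.1 CPM in A549, whereas in SUM159 they reached no more than 0.0482 and 0.0479 CPM. The study also reports more p16 protein in treated SUM159 cells, by Western blot at other doses and a longer time. That too goes against the scarce CDKN2A RNA of SUM159 here, and the cause was not tested. A gene count does not show which exons the reads came from. PECAM1 and PTPRC, genes of endothelial and blood cells, were at 17.4 to 38.9 and 3.05 to 4.54 CPM in SUM159, and at most 1.34 and 0.0956 CPM in A549; their part in the results was not tested. RBM39 messenger RNA stood at 146 to 230 CPM in the libraries without indisulam and at 336 to 486 CPM in those with it.

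In both lines palbociclib lowered RBL1, CDKN2C, RB1, CDKN1B and CDK4 and raised CCND1 and RBL2. Indisulam lowered RBL1, RB1 and CDK4 in both lines, and the combination lowered RBL1 and CDK4 further than either drug did. The RNA was from whole cultures, so fewer cells with a transcript and less of it per cell cannot be told apart. A change was called at an adjusted p under 0.05 in edgeR's quasi-likelihood test, with Benjamini-Hochberg adjustment over all genes tested. In A549, where 9 of the 10 genes had enough counts for the test, palbociclib changed 8 (3 higher, 5 lower), beside 43.2% of all genes tested (22% higher, 21.1% lower). Indisulam changed 7 there (1 higher, 6 lower), beside 49.2% (23.3% and 25.9%), and the combination 8 (3 higher, 5 lower), beside 57.8% (27.4% and 30.4%). In SUM159 all 10 were tested, and palbociclib changed 9 (3 higher, 6 lower), beside 54.5% of all genes (25.5% and 29%). For indisulam the count was 6 (1 higher, 5 lower), beside 46.9% (21.9% and 24.9%), and for the combination 9 (2 higher, 7 lower), beside 65.3% (32.2% and 33.1%). The median log2 change of the tested members was -0.33, -0.16 and -0.52 in A549 and -0.31, -0.29 and -0.43 in SUM159 for palbociclib, indisulam and both, against medians over all genes of 0.03, 0.01 and 0.00 in A549 and 0.02, 0.01 and 0.01 in SUM159.

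**Figure D1:**
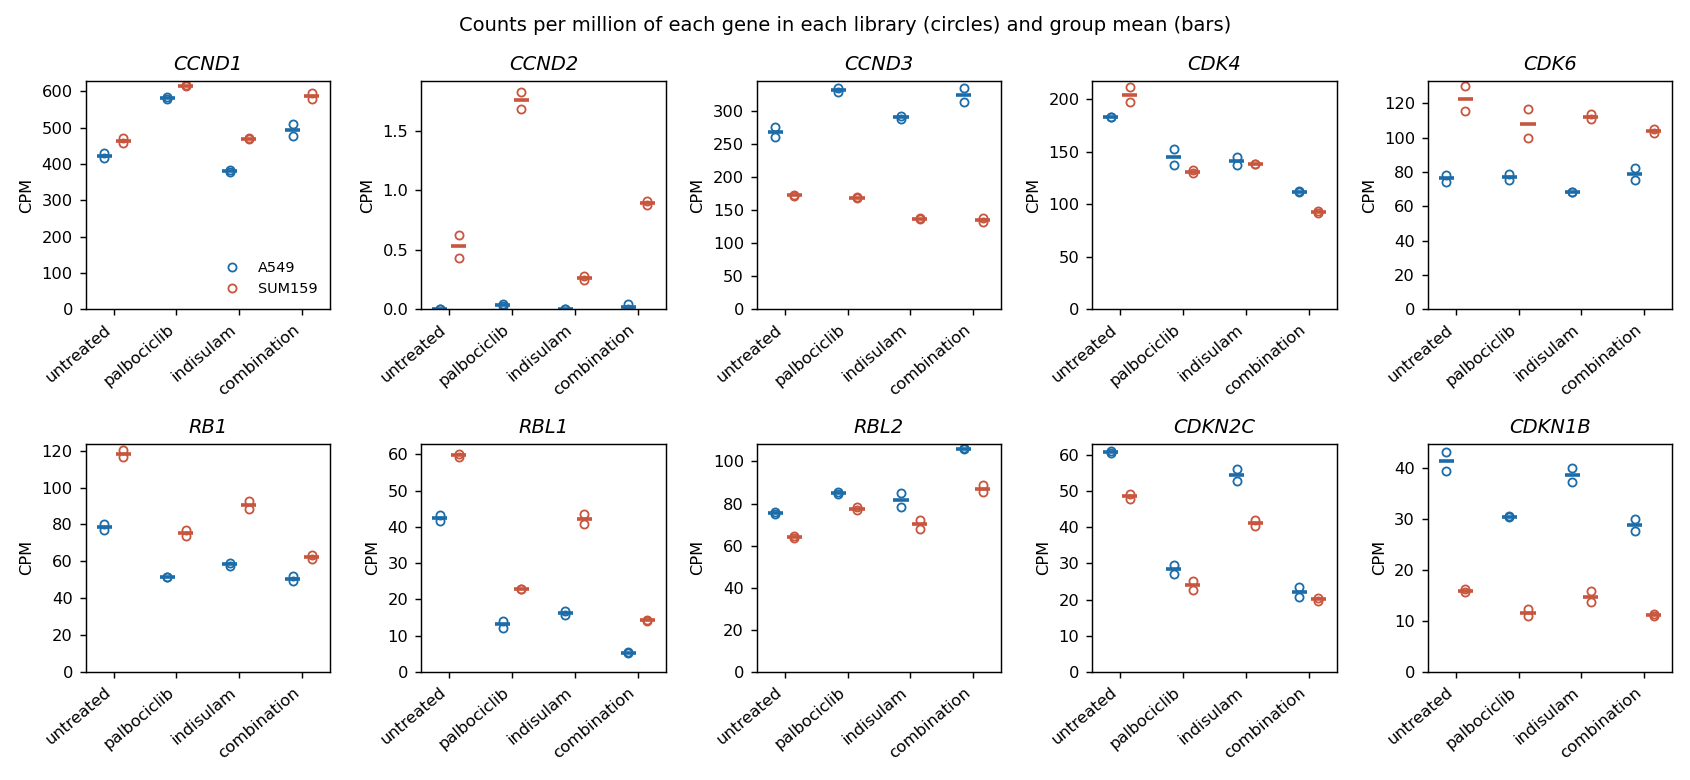
Level in CPM (y axis) of the 10 genes in untreated cells and with palbociclib, indisulam or both (x axis), in A549 (blue) and SUM159 (red); circles are libraries and bars are means of 2 libraries, and levels are scaled within each line. RBL1 fell to 5.20 and 5.53 CPM in A549 with both drugs, from 41.6 and 43.3 untreated, and RBL2 rose to 106 in both libraries.

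Among the D cyclins, CCND1 (ENSG00000110092, chromosome 11, 69641156 to 69654474, plus strand, GRCh38) encodes cyclin D1. In A549 its 2 libraries gave 429 and 417 CPM in untreated cells, 577 and 583 with palbociclib, 383 and 378 with indisulam, against 509 and 477 with both. The palbociclib libraries were the highest and the indisulam libraries the lowest, and no groups overlapped. The log2 change was 0.46 ± 0.04 (SE; edgeR, adjusted p = 4.8e-07) with palbociclib, -0.15 ± 0.04 (adjusted p = 0.0066) with indisulam and 0.22 ± 0.04 (adjusted p = 0.0003) with both. The fall with indisulam did not pass without untreated replicate 1 (-0.13, adjusted p = 0.076) or without indisulam replicate 2 (-0.14, adjusted p = 0.069).

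In SUM159, CCND1 was at 471 and 456 CPM in untreated cells, 616 and 614 with palbociclib, 467 and 471 with indisulam, against 578 and 594 with both. The untreated and indisulam libraries overlapped, with a log2 change of 0.02 ± 0.03 (edgeR, adjusted p = 0.71) that turned to -0.0078 without untreated replicate 2. Palbociclib raised CCND1 by 0.41 ± 0.03 (adjusted p = 2.6e-08) and the combination by 0.34 ± 0.03 (adjusted p = 1.6e-07) on the log2 scale.

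CCND3 (cyclin D3, ENSG00000112576, chromosome 6, 41934934 to 42050357, minus strand) took a different course in each line. A549 held 275 and 261 CPM in untreated cells, 329 and 334 with palbociclib, 288 and 292 with indisulam, against 335 and 313 with both. Every treated library was above the untreated ones there, with log2 changes of 0.31 ± 0.04 (edgeR, adjusted p = 5.6e-05) for palbociclib, 0.11 ± 0.04 (adjusted p = 0.044) for indisulam and 0.27 ± 0.04 (adjusted p = 8.8e-05) for both. The indisulam change in A549 was not called by DESeq2 (0.11, adjusted p = 0.14), with DESeq2's size factors (adjusted p = 0.057) or without the filter on low counts (adjusted p = 0.057). It was also lost without untreated replicate 2 (log2 change 0.080), indisulam replicate 1 or 2 (0.13 and 0.11), or combination replicate 1 or 2 (0.093 each).

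In SUM159, CCND3 was at 172 and 173 CPM in untreated cells, 168 and 169.9 with palbociclib, 136 and 138 with indisulam, against 131 and 138 with both. It fell with indisulam by 0.33 ± 0.04 (edgeR, adjusted p = 2e-06) and with both drugs by 0.36 ± 0.04 (adjusted p = 2.7e-07) on the log2 scale. With palbociclib alone the log2 change was -0.03 ± 0.04 (adjusted p = 0.51), and its sign depended on the scaling.

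CCND2 (cyclin D2, ENSG00000118971, chromosome 12, 4269771 to 4305353, plus strand) was scarcely transcribed. The 8 A549 libraries held 0 or 1 count each, and a floor of 3 counts corresponds to 0.0880 to 0.164 CPM over all libraries. In SUM159 the counts were 13 and 9 in untreated cells (0.627 and 0.431 CPM), 45 and 62 with palbociclib (1.69 and 1.83 CPM), 7 and 7 with indisulam (0.281 and 0.248 CPM) and 28 and 24 with both (0.873 and 0.913 CPM). The palbociclib libraries were the highest, and the log2 change of 1.73 ± 0.28 (edgeR, adjusted p = 5.2e-05) was past the threshold, while -0.99 ± 0.43 under indisulam (adjusted p = 0.075) and 0.75 ± 0.32 with both (adjusted p = 0.052) were not. The latter was called with scaling to total counts (0.90, adjusted p = 0.022). An exon of CCND2 overlaps another annotated gene on the same strand and CCND2-AS1 on the other, so these few reads are of uncertain origin.

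Of the kinases, CDK4 (ENSG00000135446, chromosome 12, 57747727 to 57756013, minus strand) fell with each treatment in each line. A549 libraries gave 183 and 183 CPM in untreated cells, 137 and 152 with palbociclib, 138 and 145 with indisulam, against 111 and 112 with both. In SUM159 the values were 197 and 211 CPM in untreated cells, 132 and 129 with palbociclib, 138 and 138 with indisulam, against 94.0 and 92.0 with both. Single-drug libraries lay between the untreated and the combination libraries with no overlap in either line.

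On the log2 scale CDK4 fell in A549 by 0.33 ± 0.05 with palbociclib (edgeR, adjusted p = 8.4e-05), by 0.37 ± 0.05 under indisulam (adjusted p = 2.9e-05) and by 0.71 ± 0.05 with both (adjusted p = 2.3e-08). The falls in SUM159 were 0.64 ± 0.04 (adjusted p = 7.2e-10), 0.57 ± 0.04 (adjusted p = 9.6e-09) and 1.13 ± 0.04 (adjusted p = 2.7e-13), the last a level 2.19-fold below untreated cells. An exon of CDK4 overlaps TSPAN31 on the opposite strand, and the strand setting of the counting is not given in the sources used here. TSPAN31 moved the other way with palbociclib, with log2 changes of 0.78 ± 0.08 in A549 (adjusted p = 1.9e-06) and, for SUM159, 1.12 ± 0.09 (adjusted p = 1.3e-08), from 20.3 and 22.9 to 34.6 and 38.8 CPM and from 7.91 and 8.96 to 19.1 and 17.7 CPM; its part in the CDK4 result was not tested.

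CDK6 (ENSG00000105810, chromosome 7, 92604921 to 92836573, minus strand), which pairs with the same cyclins, stayed closer to its untreated level. In A549 it was at 74.4 and 78.2 CPM in untreated cells, 79.0 and 75.5 with palbociclib, 68.1 and 68.4 with indisulam, against 82.5 and 75.1 with both. Palbociclib and combination libraries overlapped the untreated ones (log2 changes of 0.02 ± 0.05 and 0.05 ± 0.05, edgeR, adjusted p = 0.82 and 0.48), and indisulam libraries were lower by 0.16 ± 0.06 (adjusted p = 0.028). That fall was not called by DESeq2 (-0.17, adjusted p = 0.077), with total counts (-0.13, adjusted p = 0.076), or without either untreated library (-0.19 and -0.12) or either indisulam library (-0.15 and -0.16).

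In SUM159 CDK6 was at 116 and 129.9 CPM in untreated cells, 99.8 and 117 with palbociclib, 114 and 111 with indisulam, against 105 and 103 with both. Untreated and palbociclib libraries overlapped. The log2 changes were -0.18 ± 0.06 with palbociclib (edgeR, adjusted p = 0.022), -0.13 ± 0.06 under indisulam (adjusted p = 0.1) and -0.24 ± 0.06 with both (adjusted p = 0.0029). The palbociclib call was lost without untreated replicate 2 (-0.094) or palbociclib replicate 1 (-0.068) and was -0.30 without palbociclib replicate 2, the combination call without untreated replicate 2 (-0.16), and both with scaling to total counts (-0.074 and -0.092); the palbociclib call was also lost with 10 or more counts required in every library (-0.15). The change with indisulam was called without untreated replicate 1 (-0.21, adjusted p = 0.032) or palbociclib replicate 1 or 2 (-0.13 each, adjusted p = 0.028).

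RBL1 (ENSG00000080839, chromosome 20, 36996349 to 37095997, minus strand), which encodes the pocket protein p107, had the largest fall among the 10 genes under each treatment of A549 and under palbociclib and the combination in SUM159. The 100 bases before its RefSeq start are shown because they hold the letters to which E2F factors are known to bind, in capitals, and the same stretch of the first of 3 windows of CDKN2C, the member with the next largest fall with palbociclib and with both drugs, is given beside it. RBL1 is read from the minus strand at chr20:37095998-37096097 and CDKN2C from the plus strand at chr1:50960645-50960744 (RefSeq, GRCh38.p14), both 5′ to 3′ toward the start of transcription.
RBL1: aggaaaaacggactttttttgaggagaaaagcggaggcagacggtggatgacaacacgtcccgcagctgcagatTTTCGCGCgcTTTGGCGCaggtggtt
CDKN2C: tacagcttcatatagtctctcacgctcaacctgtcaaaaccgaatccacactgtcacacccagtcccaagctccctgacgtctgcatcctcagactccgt
The words searched on both strands were TTTCCCGC, TTTCGCGC, TTTGCCGC and TTTGGCGC for E2F and TTTGAA and TTCGAA for the CHR element, which is bound by MuvB complexes. RBL1 had 2 E2F words, TTTCGCGC at bases -26 to -19 and TTTGGCGC at -16 to -9, counted back from the start. RefSeq gave 14 windows of 250 bases before a start for 8 of the 10 genes (none for CCND1 and CCND2), and that of RBL1 was the 1 window with an E2F word, against 2.79% of 35116 promoters; 0 of the 14 held a CHR word, against 14.3% of all. Of the 14 windows, 3 ended at the outermost annotated start of the gene, for RBL1, CDKN2C and CDK6, and 11 lay inside a gene. The window of RB1 belonged to a start 172706 bases within the gene, so the bases before the outermost start of RB1, and of 4 others (CCND3, CDK4, RBL2 and CDKN1B), were not searched. A match is a run of letters and not a measured binding site.

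In A549 RBL1 was at 41.6 and 43.3 CPM in untreated cells, 14.2 and 12.2 with palbociclib, 15.7 and 16.9 with indisulam, against 5.20 and 5.53 with both. SUM159 gave 59.4 and 60.2 CPM in untreated cells, 22.8 and 22.8 with palbociclib, 40.8 and 43.7 with indisulam, against 14.1 and 14.5 with both. The 4 groups of each line did not overlap, and indisulam libraries of A549 lay near those with palbociclib while those of SUM159 lay nearer the untreated ones. The log2 falls in A549 were 1.70 ± 0.08 with palbociclib (edgeR, adjusted p = 4.3e-10), 1.38 ± 0.08 under indisulam (adjusted p = 6.9e-09) and 2.98 ± 0.10 with both (adjusted p = 2.8e-12), the last a 7.91-fold lower level. Those in SUM159 were 1.39 ± 0.06 (adjusted p = 1.8e-12), 0.50 ± 0.05 (adjusted p = 7.5e-07) and 2.07 ± 0.06 (adjusted p = 1.1e-14), the last 4.19-fold.

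RB1 (ENSG00000139687, chromosome 13, 48303744 to 48599436, plus strand), the retinoblastoma gene, fell less. Its A549 libraries held 77.3 and 80.0 CPM in untreated cells, 51.3 and 51.6 with palbociclib, 57.7 and 58.9 with indisulam, against 49.1 and 52.1 with both. SUM159 had 117 and 120.2 CPM in untreated cells, 77.3 and 73.7 with palbociclib, 93.0 and 88.4 with indisulam, against 61.0 and 63.5 with both. The combination libraries overlapped the palbociclib libraries in A549 and lay below them in SUM159.

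The log2 fall of RB1 in A549 was 0.61 ± 0.05 for palbociclib (edgeR, adjusted p = 2.4e-07), 0.43 ± 0.05 for indisulam (8.2e-06) and 0.64 ± 0.05 for both (9.6e-08). SUM159 had falls of 0.65 ± 0.05 (adjusted p = 2.1e-09), 0.39 ± 0.04 (adjusted p = 2.3e-06) and 0.93 ± 0.05 (adjusted p = 1.3e-11). No other gene overlaps an RB1 or CDKN1B exon in the annotation. CCND1 and RBL2 each share exonic bases with a gene on the opposite strand, LTO1 and AKTIP, whose log2 changes with palbociclib were -0.24 and 0.19 in A549 and 0.12 and -0.15 in SUM159, and their part in the results was not tested. CCND3, CDK6, RBL1 and CDKN2C share exonic bases with opposite-strand genes too, of which CDK6-AS1 is the named one.

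RBL2 (ENSG00000103479, chromosome 16, 53433977 to 53491648, plus strand), which encodes p130, was the pocket protein gene that rose. In A549 it was at 76.0 and 75.0 CPM in untreated cells, 85.5 and 84.6 with palbociclib, 85.1 and 78.6 with indisulam, against 106 and 106 with both. In SUM159 it was at 63.6 and 64.4 CPM in untreated cells, 78.2 and 76.8 with palbociclib, 72.4 and 67.9 with indisulam, against 85.4 and 88.7 with both. All 12 treated libraries were above the untreated libraries of their line, and the combination libraries were the highest.

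The combination raised RBL2 by 0.49 ± 0.05 in A549 (edgeR, adjusted p = 8.3e-07) and, for SUM159, by 0.44 ± 0.05 (adjusted p = 2.6e-07) on the log2 scale. With palbociclib alone the rise was 0.17 ± 0.05 in A549 (adjusted p = 0.012) and, for SUM159, 0.28 ± 0.05 (adjusted p = 9.1e-05). With indisulam alone the log2 change was 0.12 ± 0.05 in A549, which was not called (adjusted p = 0.066), and, for SUM159, 0.13 ± 0.05 (adjusted p = 0.033). The A549 palbociclib call was lost with DESeq2 (0.16, adjusted p = 0.068), without untreated replicate 1 or 2 (0.18 and 0.16) and without palbociclib replicate 1 (0.16). The SUM159 indisulam call was lost with DESeq2 (0.12, adjusted p = 0.15), with DESeq2's size factors (0.11), without the filter on low counts (0.14), without untreated replicate 1 or 2 (0.13 and 0.14) and without indisulam replicate 1 (0.085). The A549 change with indisulam was called with scaling to total counts (0.14, adjusted p = 0.023) or without indisulam replicate 2 (0.18, adjusted p = 0.030).

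**Figure D2:**
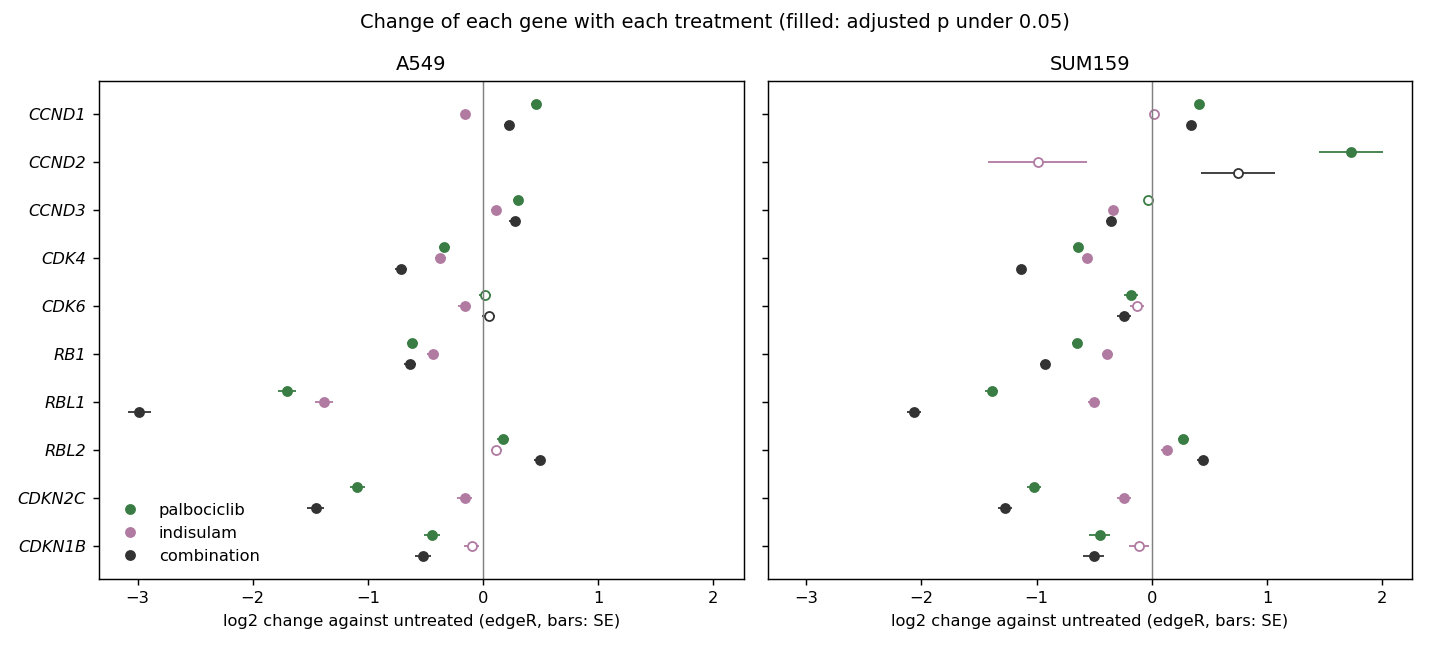
Log2 change against untreated cells (x axis; bars are the standard error of edgeR's fit) of the 10 genes (y axis) with palbociclib (green), indisulam (purple) and both (black), in A549 (left) and SUM159 (right); filled points had an adjusted p under 0.05. RBL1 was farthest below 0 with both drugs, at -2.98 in A549 and -2.07 in SUM159, and CCND2 was not tested in A549.

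CDKN2C (ENSG00000123080, chromosome 1, 50960745 to 50974634, plus strand), which encodes the INK4 inhibitor p18, followed palbociclib in both lines. A549 gave 60.6 and 61.0 CPM in untreated cells, 27.1 and 29.7 with palbociclib, 52.7 and 56.1 with indisulam, against 23.5 and 20.9 with both. SUM159 gave 47.9 and 49.3 CPM in untreated cells, 25.2 and 22.8 with palbociclib, 42.1 and 40.3 with indisulam, against 19.7 and 20.5 with both. The indisulam libraries were far closer to untreated cells than to the libraries with palbociclib, and in neither line did groups overlap.

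CDKN2C fell by 1.09 ± 0.07 with palbociclib (edgeR, adjusted p = 7.8e-09) and by 1.45 ± 0.07 with both (adjusted p = 2.8e-10) in A549, and by 1.02 ± 0.06 (adjusted p = 3.1e-10) and 1.28 ± 0.06 (adjusted p = 1.3e-11) in SUM159, on the log2 scale. With indisulam alone it fell by 0.24 ± 0.06 in SUM159 (adjusted p = 0.0025). The log2 change of -0.16 ± 0.06 in A549 was at the threshold (adjusted p = 0.05) and was not called by DESeq2 (-0.17, adjusted p = 0.14), with total counts (-0.13), with 10 or more counts required in every library (-0.16), or without untreated replicate 1 or 2 (-0.16 and -0.15), palbociclib replicate 1 or 2 (-0.16 and -0.15) or indisulam replicate 1 or 2 (-0.11 and -0.20).

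CDKN1B (ENSG00000111276, chromosome 12, 12685498 to 12722369, plus strand), the p27 gene, is best known for control at the level of protein turnover. In A549 its libraries held 43.1 and 39.5 CPM in untreated cells, 30.3 and 30.5 with palbociclib, 39.9 and 37.2 with indisulam, against 30.0 and 27.7 with both. SUM159 held 16.3 and 15.6 CPM in untreated cells, 10.95 and 12.3 with palbociclib, 15.8 and 13.7 with indisulam, against 11.04 and 11.4 with both. Indisulam and untreated libraries overlapped in both lines, and so did combination and palbociclib libraries in SUM159.

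Palbociclib lowered CDKN1B by 0.44 ± 0.07 in A549 (edgeR, adjusted p = 0.00011) and, for SUM159, by 0.45 ± 0.09 (adjusted p = 0.00048), and the combination by 0.52 ± 0.07 (adjusted p = 1.7e-05) and 0.50 ± 0.09 (adjusted p = 0.00014), on the log2 scale. With indisulam alone the log2 changes were -0.10 ± 0.07 (adjusted p = 0.24) and -0.11 ± 0.09 (adjusted p = 0.33), neither past the threshold.

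The make-up of each class was compared on levels per length, as CPM per kilobase of all exons of a gene, with all 16 libraries scaled together. In untreated A549 cells CCND1 was highest at 91.8 ± 1.7 (SD, n = 2), followed by CDK4 at 61.1 ± 0.04, CCND3 at 48.1 ± 1.8, CDKN2C at 20.8 ± 0.12, RB1 at 12.6 ± 0.33, RBL2 at 9.63 ± 0.09, RBL1 at 7.37 ± 0.22, CDK6 at 6.44 ± 0.23 and CDKN1B at 4.61 ± 0.28, with CCND2 at 0. Each of these gaps was wider than the SDs beside it. In untreated SUM159 cells the order was CCND1 at 91.9 ± 1.7, CDK4 at 62.3 ± 3.4, CCND3 at 28.2 ± 0.22, RB1 at 17.4 ± 0.46, CDKN2C at 15.2 ± 0.39, RBL1 at 9.48 ± 0.13, CDK6 at 9.47 ± 0.82, RBL2 at 7.45 ± 0.10, CDKN1B at 1.63 ± 0.04 and CCND2 at 0.0625 ± 0.016, with RBL1 and CDK6 not apart. Per kilobase of the longest transcript, CCND3 came first in A549, at 116 against 103 for CCND1 and 101 for CDK4, and in SUM159 CCND1 and CDK4 were level at 103, and CDKN1B came before RBL1 and CDK6 in A549, so parts of the order depend on the transcript length assumed.

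Within the pocket proteins the balance moved from RB1 and RBL1 toward RBL2. RBL2 made up 32.5% ± 0.80 (SD, n = 2) of the summed level of the 3 genes in untreated A549 cells, 50.7% ± 0.31 with palbociclib, 46.1% ± 2.0 with indisulam and 59.9% ± 1.1 with both. In SUM159 it rose from 21.7% ± 0.15 to 38.0% ± 0.28, 29.0% ± 0.78 and 47.1% ± 0.02. RBL1 went from 24.9% ± 0.36 to 4.12% ± 0.12 with both drugs in A549 and from 27.6% ± 0.17 to 10.5% ± 0.09 in SUM159. The sum of the 3 genes was lower in every treated group, at 29.6 CPM per kilobase untreated and 22.7 with both in A549, and at 34.3 and 22.6 in SUM159.

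Between the kinases, CDK6 rose from 9.53% ± 0.32 of the CDK4 and CDK6 sum to 15.1% ± 0.94 with both drugs in A549 and from 13.2% ± 0.37 to 22.0% ± 0.07 in SUM159, while the sum fell from 67.6 to 44.2 and from 71.7 to 38.3 CPM per kilobase. The D cyclin sum went the other way with palbociclib, from 140.0 to 183 CPM per kilobase in A549 and from 120.2 to 158 in SUM159. CCND1 made up 65.6% ± 0.44 of it in untreated A549 cells and 64.8% ± 0.02 with both drugs, and 76.5% ± 0.45 and 84.0% ± 0.17 in SUM159. These shares were not tested, and their level depends on the transcript length assumed. With lengths of the longest transcripts CCND1 made up 47.1% of the D cyclins in untreated A549 cells, below CCND3 at 52.9%, and 60.3% in untreated SUM159 cells. The CDK6 share then went from 6.25% to 10.1% with both drugs in A549 and in SUM159 from 8.77% to 15.2%. The RBL2 share went from 33.2% to 59.2% in A549 and in SUM159 from 22.3% to 46.9%.

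**Figure D3:**
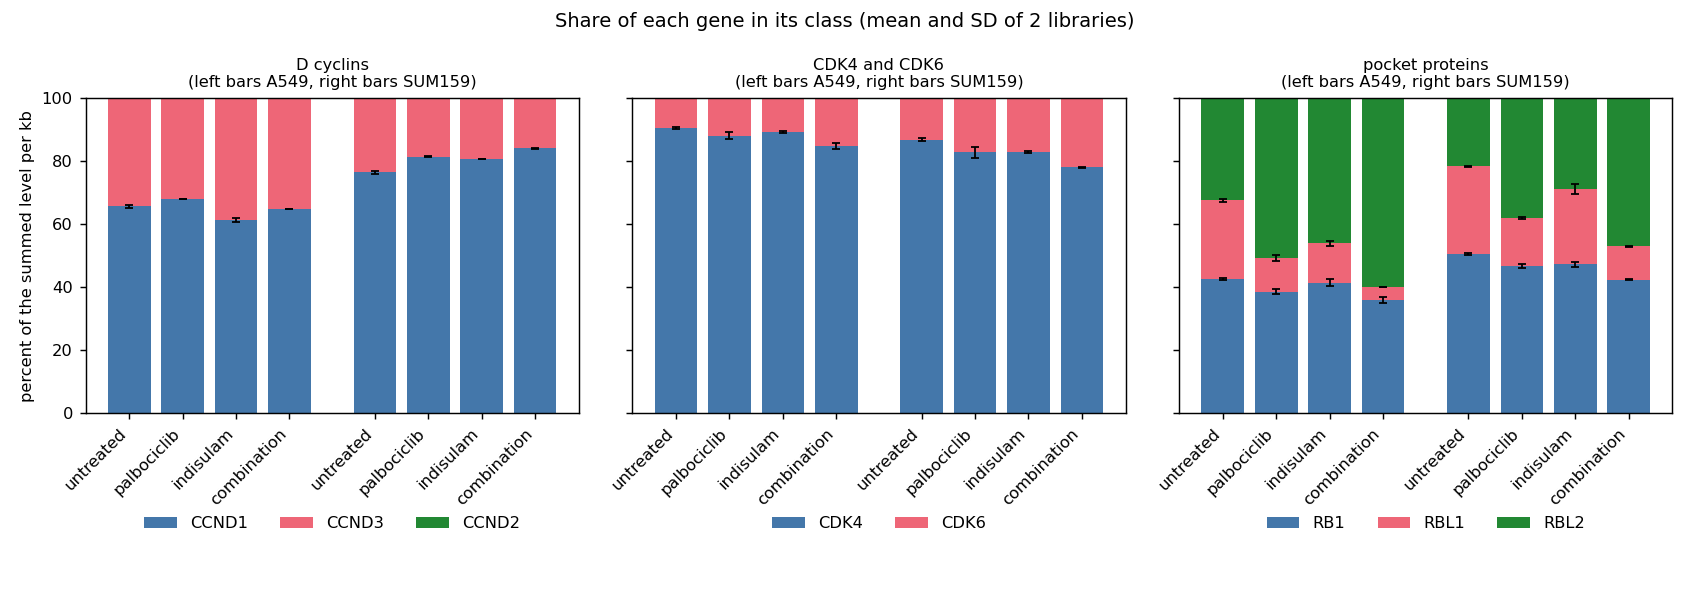
Share of each gene in the summed level per kilobase of its class (y axis, percent) for the D cyclins, CDK4 with CDK6, and the pocket proteins, in untreated and treated cells (x axis), with the SD of 2 libraries where shares meet. The RBL2 share was largest with both drugs, at 59.9% in A549 and 47.1% in SUM159.

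The combination was then set against each drug alone, which asks what the second drug added. Against palbociclib, 5 of 9 members differed in A549 (1 higher, 4 lower) beside 51.5% of all genes (23.7% and 27.8%), and 7 of 10 in SUM159 (1 higher, 6 lower) beside 48.3% (23.4% and 24.9%). Indisulam on top of palbociclib lowered RBL1 by 1.28 ± 0.11 (edgeR, adjusted p = 3.3e-07), CDK4 by 0.38 ± 0.05 (adjusted p = 2.5e-05), CDKN2C by 0.36 ± 0.07 (adjusted p = 0.0009) and CCND1 by 0.23 ± 0.04 (adjusted p = 0.00022) and raised RBL2 by 0.32 ± 0.05 (adjusted p = 6.1e-05) on the log2 scale in A549. In SUM159 the falls were 0.68 ± 0.07 for RBL1 (adjusted p = 2.9e-07), 0.49 ± 0.04 for CDK4 (adjusted p = 6.2e-08), 0.33 ± 0.04 for CCND3 (adjusted p = 1.8e-06), 0.28 ± 0.05 for RB1 (adjusted p = 9.7e-05), 0.25 ± 0.07 for CDKN2C (adjusted p = 0.0047) and 0.98 ± 0.22 for the low CCND2 (adjusted p = 0.0017), with a rise of 0.17 ± 0.04 for RBL2 (adjusted p = 0.0046). The CCND2 call was lost with DESeq2 (-0.99, adjusted p = 0.064), the RBL2 call without combination replicate 2 (0.14) and the CDKN2C call without combination replicate 1 (-0.22).

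Against indisulam, 9 of 9 members differed in A549 (4 higher, 5 lower) beside 38.8% of all genes (18.6% and 20.1%), and 8 of 10 in SUM159 (3 higher, 5 lower) beside 52.9% (24.9% and 28%). Palbociclib on top of indisulam lowered RBL1 by 1.60 ± 0.11 in A549 (edgeR, adjusted p = 2.9e-08) and, for SUM159, 1.57 ± 0.06 (adjusted p = 1e-12) and CDKN2C by 1.29 ± 0.07 (adjusted p = 1.9e-09) and 1.03 ± 0.06 (adjusted p = 3.7e-10) on the log2 scale. CDK4 (-0.34 and -0.57), CDKN1B (-0.42 and -0.39) and RB1 (-0.20 and -0.54) were lower too, in A549 and SUM159 in turn, and CCND1 (0.37 and 0.32) and RBL2 (0.37 and 0.31) higher. CCND2, at its low level, was higher in SUM159 by 1.74 ± 0.36 (adjusted p = 0.00056). The A549 count was 6 to 9 when single libraries were left out: the calls of CCND3 (0.16) and CDK6 (0.21) were lost without indisulam replicate 1 (0.15 and 0.20) or 2 (0.17 and 0.21), and that of RB1 (-0.20) without indisulam replicate 2 (-0.19) or combination replicate 1 (-0.14) and with DESeq2 (-0.19, adjusted p = 0.052).

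Whether the combination differed from the sum of the log2 changes of the single drugs was tested for each gene. In SUM159 0 of 10 members departed from the sum in edgeR's test (0 at an unadjusted p under 0.05 and 0 with DESeq2), beside 4.38% of all genes (2.22% above and 2.16% below the sum). RBL1, for instance, was at -2.07 with both drugs against single changes of -1.39 and -0.50, a departure of -0.18 ± 0.08 (edgeR, unadjusted p = 0.051, adjusted p = 0.27). In A549 1 of 9 departed, beside 3.53% (1.49% above and 2.05% below). It was RB1, which fell by 0.64 with both drugs where the single drugs gave -0.61 and -0.43, a departure of 0.41 ± 0.07 (edgeR, adjusted p = 0.01). It was not called without untreated replicate 2 (0.38, adjusted p = 0.051) or indisulam replicate 1 or 2 (0.40 and 0.42, adjusted p = 0.065 and 0.066).

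The lines differed before treatment. In untreated cells 8 of 10 members differed between SUM159 and A549 (4 higher, 4 lower in SUM159), beside 76.3% of all genes (38.3% and 38%) in the fit of all 16 libraries. CDKN1B was lower in SUM159 by 1.51 ± 0.08 (adjusted p = 1.1e-14), CCND3 by 0.77 ± 0.04 (adjusted p = 1.4e-14), CDKN2C by 0.45 ± 0.06 (adjusted p = 5e-07) and RBL2 by 0.37 ± 0.05 (adjusted p = 4.4e-07) on the log2 scale of edgeR's fit. CDK6 was higher by 0.56 ± 0.07 (adjusted p = 4e-08), RB1 by 0.46 ± 0.05 (adjusted p = 5.2e-09) and RBL1 by 0.36 ± 0.06 (adjusted p = 1.2e-05), and CCND2 was at least 3.05-fold higher, with 0.499 CPM against the A549 floor of 3 counts in a library. CCND1 and CDK4 were not called, with differences of 0.00 ± 0.04 (adjusted p = 0.98) and 0.03 ± 0.05 (adjusted p = 0.63). With single libraries left out 8 to 9 members were called, so CCND1 or CDK4 passed in some of those fits. The differences ran, for instance, from -0.77 to -0.64 for CCND3, from -1.53 to -1.35 for CDKN1B and from 0.44 to 0.56 for RB1.

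The response to the drugs also differed between the lines, most of all for CCND3 and RBL1. The difference between lines was tested for 10 members and passed for 3 with palbociclib (1 higher, 2 lower in SUM159), beside 12.8% of all genes (9.65% and 3.15%). It passed for 3 under indisulam (2 higher, 1 lower), beside 15% (8.04% and 6.97%), and for 5 under the combination (2 higher, 3 lower), beside 30.9% (19.1% and 11.8%). CCND3, which rose in A549 and fell in SUM159 with indisulam and with both drugs, had differences of -0.24 ± 0.06 for palbociclib (edgeR, adjusted p = 0.0062), -0.45 ± 0.06 for indisulam (adjusted p = 1.2e-05) and -0.57 ± 0.06 for both (adjusted p = 9.6e-08). RBL1 fell less in SUM159, by 0.41 ± 0.10 (adjusted p = 0.0058), 0.88 ± 0.09 (adjusted p = 7.8e-07) and 0.98 ± 0.12 (adjusted p = 1.1e-06). CDK4 fell further in SUM159, with differences of -0.21 ± 0.07 for palbociclib (adjusted p = 0.04) and -0.36 ± 0.07 for both (adjusted p = 0.0003), and so did RB1 with both, at -0.23 ± 0.07 (adjusted p = 0.016). The CDK4 call for palbociclib was lost without SUM159 untreated replicate 2 (-0.16), palbociclib replicate 2 (-0.20) or indisulam replicate 1 or 2 (-0.21 each), and the RB1 call without SUM159 untreated replicate 2 or combination replicate 1 (-0.20 each). Leaving out A549 libraries moved these differences the other way: the CDK4 difference for palbociclib was over 1.5 times larger without any 1 of the 8 but palbociclib replicate 2, reaching -0.46 without palbociclib replicate 1, and the RB1 difference without any 1 but combination replicate 2, reaching -0.41 without combination replicate 1. The CCND3 difference for palbociclib was -0.36 to -0.46 without any 1 of them, the last without untreated replicate 1.

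In this fit the median difference over all genes was 0.08 for palbociclib and 0.10 for both, and requiring 10 counts in every library moved it by -0.12 and -0.15, so small differences depend on the scaling. Of the called genes, 75.4% for palbociclib, 53.6% for indisulam and 61.8% for both were higher in SUM159, against 39.2%, 54.4% and 39.9% with that filter. With DESeq2's size factors the medians were -0.02 for palbociclib and 0.01 for both. The palbociclib differences were then -0.34 for CCND3, -0.31 for CDK4 and 0.31 for RBL1. With both drugs they were -0.65 for CCND3, -0.44 for CDK4, -0.31 for RB1 and 0.90 for RBL1. These values lie nearer than those with TMM to the gaps between the changes given above from each line's own fit. The CCND1 differences of 0.17 ± 0.05 for indisulam (adjusted p = 0.032) and 0.18 ± 0.05 for both (adjusted p = 0.011) went to 0.16 (adjusted p = 0.058) and 0.10 (adjusted p = 0.21) with DESeq2's size factors. The first was lost without A549 untreated, indisulam or combination replicate 1 or 2, A549 palbociclib replicate 1, SUM159 untreated replicate 2 or SUM159 indisulam replicate 1 or 2, with differences of 0.13 to 0.18. The second was lost without any 1 of the 8 A549 libraries (-0.017 to 0.086), without SUM159 untreated replicate 2 (0.16) or combination replicate 2 (0.16), with DESeq2 (0.096) and with 10 counts required in every library (0.077). The RBL1 difference for palbociclib was not called by DESeq2 (0.31, adjusted p = 0.10), nor without A549 untreated, indisulam or combination replicate 1 or 2 (0.22 to 0.26), and was smallest, 0.15, without A549 palbociclib replicate 2. All 3 differences of CCND3, those of RBL1 for indisulam and both, and that of CDK4 for both passed under each scaling, filter and left-out library tried.

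**Figure D4:**
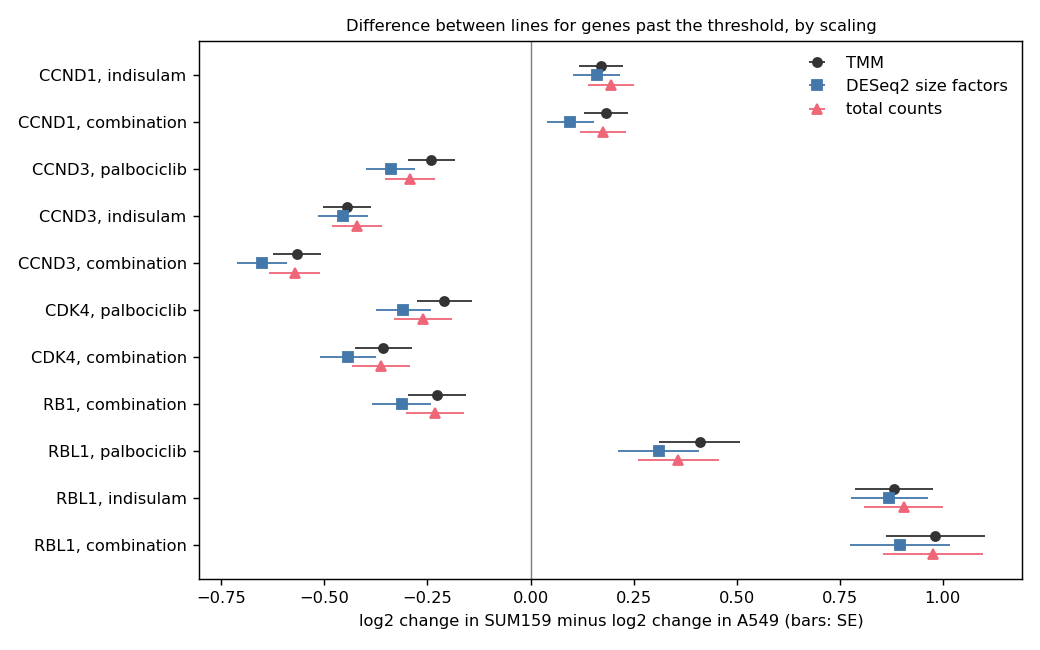
Log2 change in SUM159 minus log2 change in A549 (x axis; bars are standard errors) for the members and treatments past the threshold (y axis), with TMM scaling (black circles), DESeq2's size factors (blue squares) or total counts (red triangles). CCND3 was below 0 and RBL1 above 0 under each of the 3 scalings, while CCND1 with both drugs lay nearest to 0, at 0.10, with DESeq2's size factors.

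Another 42 genes of the pathway, in 7 classes, were described in the same fits. In A549 31 of 42 changed with palbociclib (5 higher, 26 lower), 31 under indisulam (9 higher, 22 lower) and 35 under both (7 higher, 28 lower), beside 43.2%, 49.2% and 57.8% of all genes. In SUM159, where 40 were tested, 30 changed with palbociclib (2 higher, 28 lower), 27 under indisulam (3 higher, 24 lower) and 34 under both (3 higher, 31 lower), beside 54.5%, 46.9% and 65.3%. The median log2 changes of the tested pathway genes were -0.70, -0.18 and -1.07 in A549 and -0.67, -0.22 and -1.03 in SUM159. The class counts below are given by direction. Of all genes, 21.1%, 25.9% and 30.4% were lower in A549 and 29%, 24.9% and 33.1% in SUM159. The shares of all genes that were higher were 22%, 23.3% and 27.4% in A549 and 25.5%, 21.9% and 32.2% in SUM159.

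The 10 E2F target genes, which serve DNA replication and nucleotide supply, fell most. All 10 were lower with palbociclib and with both drugs in each line, and with indisulam 9 were lower in each, with CDT1, a replication licensing factor, higher in A549 (0.36 ± 0.12, edgeR, adjusted p = 0.025). RRM2, a subunit of ribonucleotide reductase, fell most with both drugs: it fell by 4.01 ± 0.07 in A549 (edgeR, adjusted p = 7.3e-15) and, for SUM159, by 3.34 ± 0.06 (adjusted p = 4e-17) on the log2 scale. With palbociclib CCNA2 (cyclin A2) fell most in A549, by 2.53 ± 0.06, and TYMS (thymidylate synthase) in SUM159, by 2.35 ± 0.04. With indisulam the largest log2 falls were -1.10 ± 0.05 for MYBL2, a cell cycle transcription factor, in A549 and -0.94 ± 0.04 for TYMS in SUM159.

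Of the 10 E2F and DP factors, 7 fell in each line with palbociclib, and 6 in A549 and 8 in SUM159 with both. Of the repressors E2F7 and E2F8, E2F7 fell by 2.46 ± 0.08 with palbociclib in A549 and E2F8 fell by 3.43 ± 0.14 with both there. In SUM159 E2F8 fell by 2.03 ± 0.10 with palbociclib and fell by 2.75 ± 0.11 with both. With indisulam the largest log2 falls were -0.72 ± 0.07 for E2F7 in A549 and -0.54 ± 0.12 for E2F5 in SUM159. TFDP2, a DP partner of E2F, was higher under each treatment in each line, by 0.17 to 0.80 on the log2 scale. Of cyclin E and CDK2, which act after CDK4 and CDK6, CCNE2 fell by 3.65 ± 0.20 in A549 and 2.86 ± 0.09 in SUM159 with both, and all 3 genes fell with indisulam and with both in each line.

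In the MuvB core, the complex that RBL1 and RBL2 join in the DREAM repressor, 4 of 5 genes fell with palbociclib and 4 of 5 with both in each line. LIN52 fell by 1.34 ± 0.14 in A549 and 1.10 ± 0.11 in SUM159 with both, and LIN37 rose by 0.77 ± 0.29 and 0.71 ± 0.25, from 1.499 and 2.03 to 2.21 and 3.80 CPM and from 1.40 and 1.05 to 2.09 and 1.90 CPM. An exon of LIN37 overlaps another gene on the same strand, so its low counts are uncertain. With indisulam 2 of the 5 rose and 2 fell in A549, and 1 rose and 1 fell in SUM159, RBBP4 by 0.09 ± 0.04. LIN9 fell by 0.84 ± 0.08 with palbociclib in SUM159.

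Of the CDK-activating kinase, which phosphorylates CDK4, CDK6 and CDK2, cyclin H (CCNH) fell with indisulam by 1.54 ± 0.09 in A549 (edgeR, adjusted p = 1.1e-08) and, for SUM159, 1.40 ± 0.06 (adjusted p = 4.4e-11), and by 1.28 with both in each line, while its changes with palbociclib, -0.04 and -0.13, were not called. Exons of CCNH overlap RASA1 on the opposite strand. Other pathway genes named here, among them CCNE2, CCNA2 and TYMS, also overlap opposite-strand genes, and the part of these overlaps was not tested. The kinase CDK7 rose in A549, with log2 changes of 0.17, 0.30 and 0.42 for palbociclib, indisulam and both, and was not called in SUM159 (0.04, 0.01 and 0.05). With both drugs 2 of the 3 genes of this class were lower in SUM159, and 1 was lower in A549. Among 6 genes for the turnover of cyclin D and p27, SKP2 and CKS1B, which target p27 for degradation, fell with both drugs by 1.15 and 1.14 in A549 and by 1.06 and 1.36 in SUM159. FBXO4, an F-box protein for cyclin D1, fell by 0.68 ± 0.14 in A549 and by 0.58 ± 0.10 in SUM159 with indisulam, where FBXO31 rose by 0.37 ± 0.07 and 0.15 ± 0.05. An exon of FBXO31 overlaps another gene on the same strand, so its small rises are uncertain. GSK3B rose in SUM159 by 0.12 ± 0.04 with palbociclib and 0.15 ± 0.04 with both. AMBRA1, a receptor for degradation of D cyclins, rose in A549 by 0.44 ± 0.06 with both (adjusted p = 3.6e-05), and in SUM159 its change was 0.06 ± 0.06 (adjusted p = 0.36).

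Among 5 other inhibitors, CDKN2D (p19, an INK4 relative of CDKN2C) fell under each treatment in each line, by 1.11 ± 0.20 in A549 and 1.03 ± 0.15 in SUM159 with both. CDKN1A (p21) rose by 0.53 ± 0.07 with both in A549 (edgeR, adjusted p = 2.3e-05) and fell by 0.55 ± 0.06 in SUM159 (adjusted p = 2e-07). The study reports more p21 protein in both lines, by Western blot at other doses and a longer time. The fall of CDKN1A RNA in SUM159 goes the other way, and the cause was not tested. CDKN2A and CDKN2B were too low to be tested in SUM159.

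**Figure D5:**
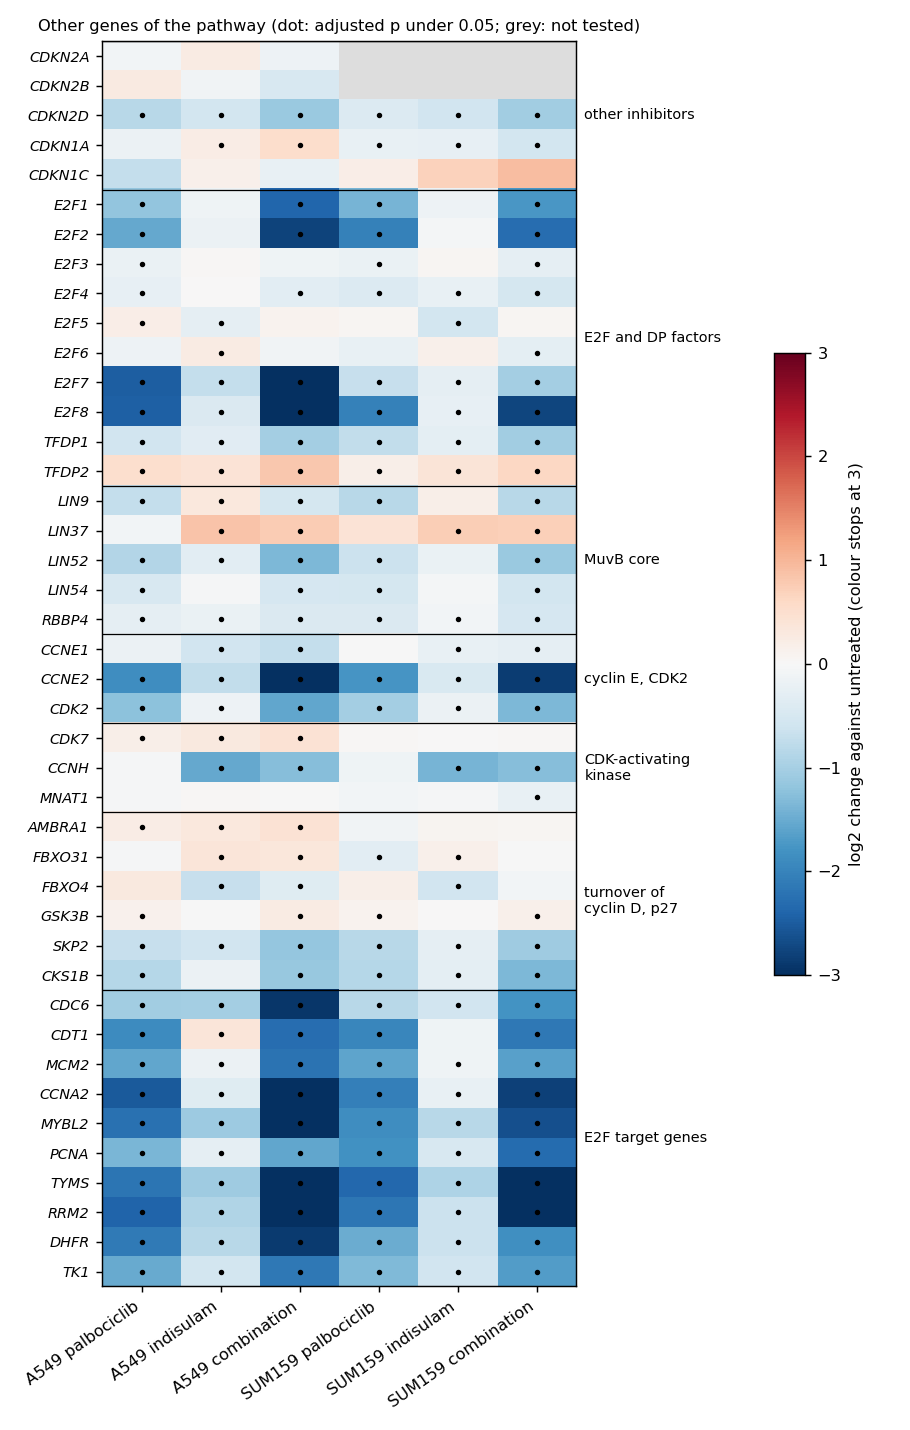
Log2 change against untreated cells (colour, red higher and blue lower, ending at 3 in either direction) of 42 other genes of the pathway (rows, by class) under the 3 treatments of each line (columns); dots mark an adjusted p under 0.05 and grey marks genes not tested. The 10 E2F target genes at the bottom were lower with palbociclib and with both drugs in both lines.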

How the data were processed

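RNA was sequenced from 2 cell lines in 4 groups each, with 2 libraries per group. The counts per gene were deposited by the authors as whole numbers for 58676 gene identifiers. Their methods give SeqPurge trimming, HISAT2 2.2.1 alignment to GRCh38 and HTSeq counting of stranded libraries; the HTSeq version, strand setting and annotation release are not given in the sources used here. If strand was not used, reads on bases shared by a gene and its antisense partner cannot be told apart. How many of them went to the ambiguous reads was not tested. Rows for reads without a feature (3.89% to 6.78% of a library), ambiguous reads (4.38% to 5.62%) and reads aligned more than once (4.25% to 5.25%) were left out. Symbols and positions came from GENCODE 44, which matched 58207 identifiers.

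Counts were tested with edgeR 4.0.16 in R 4.3.3 (TMM, filterByExpr, quasi-likelihood test, Benjamini-Hochberg adjustment over all genes tested, threshold 0.05), in a fit of 8 libraries per line (15744 genes in A549, 16080 in SUM159) and, between lines, in a fit of 16 libraries (17764 genes). SE is the log2 change divided by the root of F. No coefficient was given to replicate number. Depth was 18306636 to 34075588 gene counts, so that a floor of 3 counts is 0.0880 to 0.164 CPM, for counting error only. The libraries of a group differed beyond sampling noise (chi-square per degree of freedom 1.59 to 9.13). The fits were tested on simulated data. Alternatives were DESeq2 1.42.0, its size factors, total counts, other filters, a threshold on the size of change, a replicate block, longest transcript lengths and leaving out each library.

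The 10 genes, the pathway list and the marker lists were chosen with earlier results of these data known. All 10 genes are named throughout, and of the other pathway genes the largest rise and fall past the threshold in each class and treatment. Genes alike were sought by the smaller of 2 Pearson correlations of log2(CPM + 0.5) over the 8 libraries of each line, among genes with a mean of 5 CPM or more in both. Promoters were RefSeq's, on GRCh38.p14.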

Additional observations from a re-analysis of the deposited data

Results flagged for a closer look

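The test of the difference between the lines (log2 change in SUM159 minus log2 change in A549, edgeR, Benjamini-Hochberg adjustment) was passed by 11 results of the family. Of the 42 other pathway genes it was passed by 10 with palbociclib, 11 with indisulam and 19 with both, beside 12.8%, 15% and 30.9% of all genes, and the 14 results among these whose genes the rule on largest changes names are given here with those of the family. With palbociclib the differences were -0.24 for CCND3, -0.21 for CDK4, 0.41 for RBL1, 1.86 for E2F7, 0.51 for E2F8 and 0.57 for CCNA2. With indisulam they were 0.17 for CCND1, -0.45 for CCND3, 0.88 for RBL1, -0.47 for CDKN1A, 0.46 for E2F7, -0.29 for CDK7, -0.50 for CDT1 and 0.26 for MYBL2. With both drugs they were 0.18 for CCND1, -0.57 for CCND3, -0.36 for CDK4, -0.23 for RB1, 0.98 for RBL1, -1.01 for CDKN1A, 0.75 for E2F8, 0.86 for CCNE2, -0.31 for CDK7, -0.31 for AMBRA1 and 0.73 for RRM2. E2F7, a repressor among the E2F factors, had the widest of them: its fall with palbociclib was 2.46 ± 0.08 in A549 and 0.70 ± 0.05 in SUM159 on the log2 scale (adjusted p of the difference 6.4e-12). These falls are from the fit of each line and the difference from the fit of 16 libraries, so the falls do not subtract to it. In the fit of 16 libraries the median difference over all genes was 0.08 for palbociclib, 0.02 for indisulam and 0.10 for both. With DESeq2's size factors it was -0.02, 0.01 and 0.01, so the size of the differences listed here depends on the scaling. CDKN1A, the p21 gene, rose in A549 and fell in SUM159 with indisulam and with both drugs (adjusted p of the differences 0.0015 and 2.3e-08). Alternatives are not given here for each of the 14 results outside the family. With single libraries left out, the pathway genes called numbered 7 to 14 with palbociclib, 4 to 11 with indisulam and 17 to 26 with both. The lines also differed in culture medium, and the 2 cannot be told apart.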

How the results depend on the processing

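Of 106 results given for single members, 23 had another call under at least 1 alternative and another 4, not called in any, changed only their sign. DESeq2 lost 9, its size factors in edgeR lost 4, scaling to total counts lost 4 and added 2, and no filter lost 2. DESeq2 called 4 members in A549 with indisulam in place of 7. CCND3 in SUM159 with palbociclib changed sign with total counts (0.075) and with 10 counts required in every library (0.0031); the cause was not tested. Total counts moved the median of all genes by 0.11 and 0.15 in SUM159 with palbociclib and both, and the share of higher calls there from 46.8% to 62.5% and from 49.3% to 64.3%, in A549 from 51.1% to 62.4% and from 47.4% to 57.8%, and in SUM159 with indisulam from 46.8% to 57.9%. Between the lines, DESeq2's size factors moved that share to 44.02% for palbociclib (75.4% with TMM) and to 46.6% for both (61.8%).

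With a log2 change of at least 1 also required, the members called against untreated were 2, 1 and 2 in A549 (palbociclib, indisulam, both), beside 5.28%, 8.19% and 13.2% of all genes, and 3, 0 and 3 in SUM159, beside 7.69%, 5.6% and 14.9%. Against palbociclib and indisulam, they were 1 and 2 in A549 (8.95% and 4.97% of all genes) and 0 and 3 in SUM159 (5.13% and 6.97%), for additivity 0 in A549 (0.197%; 0.180% in SUM159), between untreated lines 2 (37.9%) and between responses 0, 0 and 0 (1.57%, 1.73% and 6.36%). Of the pathway genes that left 16, 4 and 22 in A549 and 14, 1 and 22 in SUM159 against untreated, 7 and 17, and 3 and 16, against the single drugs, 2 and 0 for additivity, 5 between untreated lines and 1, 0 and 5 between responses. By construction this asks for larger changes. With lengths of the longest transcripts 55 of 64 shares within a class moved by more than the SD of their libraries.

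Leaving out single libraries gave member counts against untreated of 7 to 8, 4 to 6 and 8 in A549 and 8 to 9, 5 to 7 and 8 to 9 in SUM159. The counts were 6 to 9 for A549 with both against indisulam, 0 to 2 for additivity in A549, and 2 to 3, 2 to 4 and 3 to 6 for the responses between lines. Pathway counts ran from 27 to 31 in A549 with palbociclib, 5 to 8 for additivity in A549, and 7 to 14, 4 to 11 and 17 to 26 for the responses. Signs turned for CCND1 in SUM159 with indisulam (-0.0078 to 0.044), for the CCND1 response difference with both (-0.017 to 0.20) and for CDK6 in A549 with palbociclib (-0.024 to 0.050) and with both (-0.019 to 0.11).

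The replicate numbers did not pair the libraries (correlations of deviations -0.114 to 0.114). With a replicate block 6 members were called in A549 with indisulam, CDKN2C being lost (-0.16, adjusted p = 0.061), and no other call of the 10 genes changed. With crossed numbers for both drugs against palbociclib the counts were 5 and 7 members and 30 and 26 pathway genes. Technical duplicates do not measure the spread between cultures, so small changes may pass here that would not pass between separate cultures. The few counts of CCND2 limit its calls.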

Other observations

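For each member that passed the filter in both lines, the genes whose levels ran most alike over the libraries were listed by the smaller of the correlations in A549 and SUM159 (8 libraries each, 9657 genes compared). The 8 points of a line are 4 treatments with 2 libraries each, so a high r says that a gene ordered the treatments alike, and no test was made. RBL1 ran closest to MTHFD1, an enzyme of folate metabolism (r = 0.997), WDHD1, a replication factor (0.996), and PSIP1 (0.995). CDKN2C ran closest to CCNF, which encodes cyclin F (0.995), CENPN, a centromere protein (0.995), and GINS2, part of the replicative helicase (0.995).

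For CCND1 the nearest genes were PPL (r = 0.983), PTK2B (0.982) and SLC9A7 (0.975), and for CCND3, which took different courses in the lines, TUSC3 (0.966), SDC4 (0.956) and ATP6V0D1 (0.945). CDK4 was nearest to FKBP4, a co-chaperone (0.988), FN3KRP (0.987) and SUV39H2, a histone methyltransferase (0.985). RB1 was nearest to PPP4R1 (0.986), EBNA1BP2 (0.985) and PPM1G (0.985), and CDKN1B to PTMA (0.974), RIOK1 (0.967) and PPP1R14B (0.964). RBL2 was nearest to CLU, which encodes clusterin (0.962), TNFAIP1 (0.950) and DAB2 (0.946). CDK6 had the loosest neighbours, MACF1 (0.915), ARHGEF12 (0.885) and CASK (0.856).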
